A study of Homo sapiens with 4 samples.

Results

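The regions described here are strong, narrow binding sites of TEAD1 at which no YAP peak was called in the human cell line H69. TEAD1 is a member of the TEAD family of DNA-binding transcription factors, the nuclear end point of the Hippo pathway. YAP does not bind DNA by itself. It is a coactivator that reaches chromatin mainly through TEAD proteins when the Hippo kinases leave it unphosphorylated, and TEAD proteins can also sit on DNA without it or with repressive partners of the VGLL family. Sites were taken from the TEAD1 peak list on chromosomes 1 to 22 where the authors' peak score was 300 or more, the width was below 1000 bp and no base was shared with a peak of either YAP list. The sites were thus chosen by TEAD1 score, TEAD1 width and the lack of YAP overlap, and these values are given as descriptions. The rule gave 1640 peaks of the 48962 in the TEAD1 list, or 3.35%.

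Chromatin immunoprecipitation followed by sequencing was run on 4 libraries of H69 cells, 1 per antibody. These were an antibody against TEAD, which the series design names as TEAD1, a YAP antibody that the design names as Avruch, a YAP antibody from Santa Cruz and an unrelated IgG. All came from the same line, crosslinked for 10 min with formaldehyde and sonicated to fragments near 250 bp, and the labels give no treatment, genotype change or tissue of origin. No library had a replicate. The IgG library was not analysed here. The lists held 48962 TEAD1 peaks, 10118 Avruch peaks and 2471 Santa Cruz peaks, and read depth is unknown, so a site without a YAP peak is a site where none was called at that depth and not a site shown to lack YAP. Peak lists carry no expression, so the identity of the cells could not be checked against markers, and genes, motifs and DNA sequence at the sites were not analysed here for want of an hg19 reference here. All positions are hg19 and counted from 1.

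Strong narrow TEAD1 peaks lacked a YAP peak about as often as narrow TEAD1 peaks in general. On the autosomes, 1941 TEAD1 peaks had a score of 300 or more. Of these, 1640 were narrow without a YAP peak, 55 were narrow with one, and 246 were at least 1000 bp wide. The sites without YAP thus made up 96.8% of the 1695 strong narrow peaks (Wilson 95% interval 95.8 to 97.5), and 97.0% of all 46548 narrow autosomal TEAD1 peaks also overlapped no YAP peak. Overlap chose the sites, so these shares are descriptions. Of the 246 wide peaks, 167 carried a YAP peak (67.9%, 61.8 to 73.4) and 79 did not. Wider peaks overlap others more easily. The wide peaks lay a median of 125.5 bp from the nearest other TEAD1 peak, so many are not separate observations. Among the 55 narrow peaks with YAP, 27 overlapped an Avruch peak alone, 10 a Santa Cruz peak alone and 18 both. A further 31 peaks on other chromosomes or contigs met the rule for score, width and overlap, and they were left out by the restriction to autosomes.

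**Figure D1:**
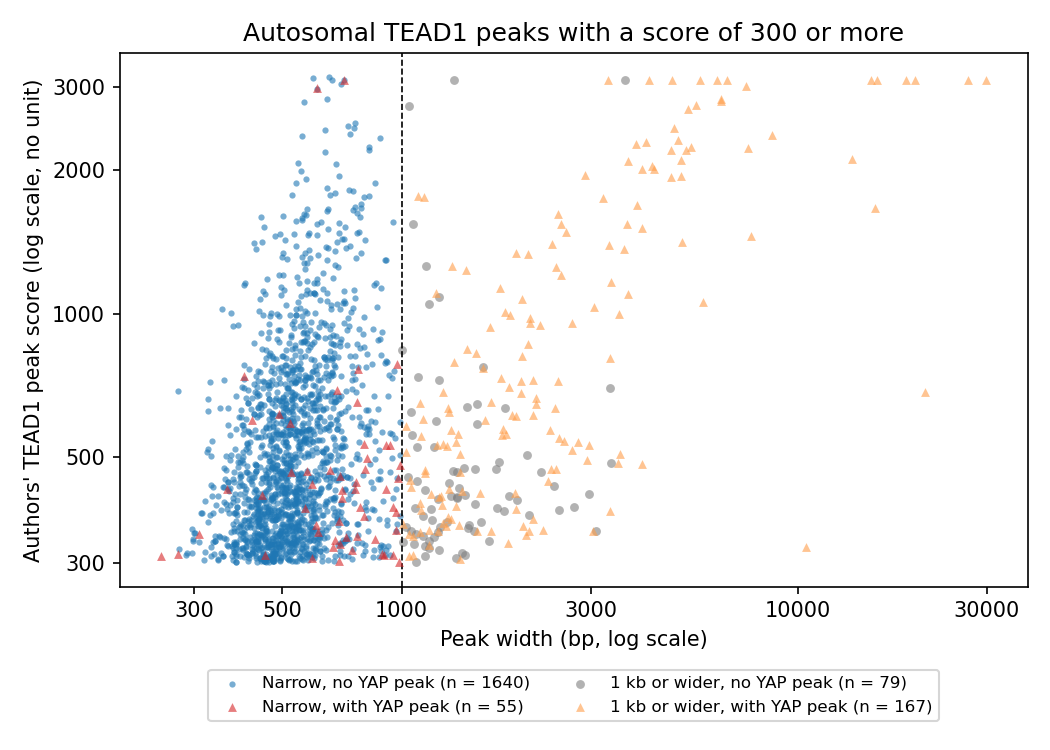
Authors' peak score (vertical axis, log scale, no unit) against peak width in bp (horizontal axis, log scale) for the 1941 autosomal TEAD1 peaks with a score of 300 or more. Each point is a peak, and the dashed line marks 1000 bp. To its left, 1640 peaks without YAP stand beside 55 with YAP, and to its right 167 of 246 carried a YAP peak.

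Scores of the sites without YAP reached from 300.27 to 3139.81, with a median of 464 and quartiles of 362 and 668. The scores just inside the limit were 300.27, 300.70 and 300.81, and those just outside it were 299.98, 299.93 and 299.78. Widths ran from 272 to 993 bp with a median of 527.5 bp, against a median of 708 bp for the 55 strong narrow peaks with YAP and 269 bp for the 43531 weaker narrow peaks without YAP. The widest site inside the limit was 993 bp, and the narrowest strong peak without YAP outside it was 1003 bp. Median width was 497 bp in the 905 sites with scores of 300 to 500 and 551.5 bp in the 580 with scores of 500 to 1000. It was 621 bp in the 155 with scores of 1000 or more (Spearman's rho 0.309 across 1640 peaks of 1 library). The rule limits both score and width and leaves out the wide strong peaks, so these values do not show how width goes with score in strong peaks at large. The 246 wide strong peaks had a median width of 1766.5 bp.

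Of the 228 autosomal TEAD1 peaks with a score of 1000 or more, 155 were sites without YAP, 2 were narrow with YAP, and 71 were wide, 64 of them with YAP. The share of narrow peaks with YAP among these, 2 of 157, has an interval (0.350 to 4.53%) that holds the 3.24% found over all strong narrow peaks. The narrow peaks with YAP lay on chromosome 14 from 62221782 to 62222495 (score 3100) and on chromosome 10 from 47152496 to 47153106 (score 2982.74). Both overlapped an Avruch peak and neither a Santa Cruz peak. The strong narrow peak with YAP that came next scored 784.56.

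The highest-scoring site lay on chromosome 9 from 114792172 to 114792828, was 657 bp wide and scored 3139.81. Its nearest Avruch peak was 56.9 kb away and its nearest Santa Cruz peak 1870 kb away. The nearest other TEAD1 peak, 10989 bp away, was itself strong, with a score of 1768.18. The next site, on chromosome 11 from 128387447 to 128388042, was 596 bp wide and scored 3133.14. A Santa Cruz peak lay 3752 bp from it, outside the peak, and the nearest Avruch peak was 53.3 kb away.

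Then came sites on chromosome 4 (84128740 to 84129456) and chromosome 7 (43733435 to 43734101), both with a score of 3100 and 20.7 and 33.5 kb from the nearest other TEAD1 peak. Exactly 3100 was also the score of a narrow peak with YAP and of several wide peaks. Whether this value is a ceiling of the score was not tested, so the rank of these sites beside the highest ones is uncertain. The site on chromosome 6 from 132272198 to 132272901 scored 3039.45, was 704 bp wide, had a TEAD1 neighbour 2798 bp away and was 97.0 kb from the nearest YAP peak, an Avruch peak. The site on chromosome 22 from 36025645 to 36026256 scored 2962 and was farthest from YAP among the 20 strongest, at 715 kb. Apart from the one on chromosome 9, these sites had nearest TEAD1 neighbours with scores of 53.4 to 148, and apart from the one on chromosome 11 the nearest YAP peak was at least 21.0 kb away.

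Chromosome 10, with 85 of the 1640 sites, held 4 of the 20 strongest. They lay at 47767896 to 47768545 (score 2821.44), 48276308 to 48276873 (2779.44), 35701830 to 35702592 (2517.28) and 49195839 to 49196572 (2480.03). Chromosome 19 held sites at 23737040 to 23737798 (2461.69) and 45879331 to 45880072 (2380.98), chromosome 6 a further one at 25172926 to 25173566 (2428.65) and chromosome 18 one at 21032500 to 21033060 (2365.30). The remaining ones of the 20 were on chromosome 1 at 96827917 to 96828800 (2334.87), 205270366 to 205271007 (2188.47) and 65891236 to 65891917 (2061.35), on chromosome 3 at 112365633 to 112366458 (2239.90), on chromosome 2 at 56219289 to 56220117 (2204.34) and on chromosome 17 at 836593 to 837141 (2070.49). The 20 sites were spread over 13 chromosomes, had widths of 549 to 884 bp, and lay a median of 102 kb from the nearest YAP peak. A YAP peak was within 10 kb of 3 of them, those on chromosomes 11, 17 and 19, and more than 100 kb from 10.

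Among narrow TEAD1 peaks, the share that overlapped a YAP peak was higher at TEAD1 scores of 100 to 500 than in the lowest class or above 500. The interval of the highest class held the shares of all the other classes. In the classes of 50 to 100, 100 to 200 and 200 to 300 it was 2.62%, 4.43% and 4.49%. In the classes that hold the sites described here it was 4.44% at 300 to 500 (42 of 947, 3.30 to 5.94), 1.86% at 500 to 1000 (11 of 591, 1.04 to 3.30) and 1.27% at 1000 or more (2 of 157, 0.350 to 4.53). Wider peaks overlap others more easily and width goes with score, so the shares were also taken in peaks of 400 to below 800 bp alone. There the share was lower in each class than in the one before it up to 1000, at 6.64% (110 of 1657, 5.54 to 7.94), 5.01%, 3.40%, 3.12% and 1.34% (7 of 521, 0.652 to 2.75), and it was 1.42% (2 of 141, 0.390 to 5.02) at 1000 or more. Median width within this range was 443 bp in the lowest class and 611 bp in the highest. Because overlap and score chose the sites, this is a description without a test.

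**Figure D2:**
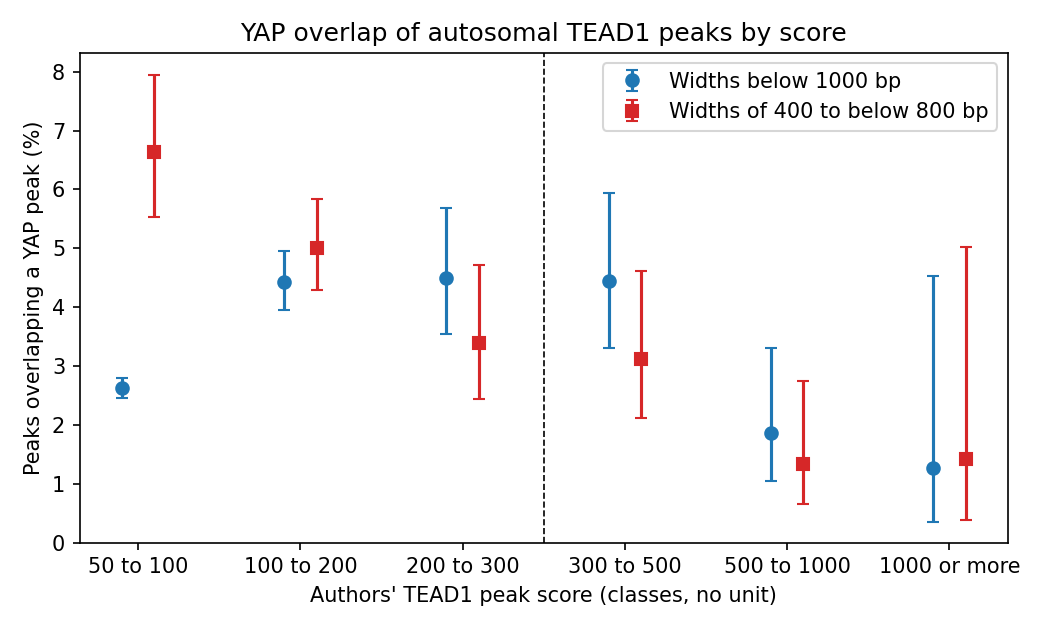
Percent of autosomal TEAD1 peaks overlapping a YAP peak of either antibody (vertical axis) in 6 classes of the authors' TEAD1 score (horizontal axis, no unit), for widths below 1000 bp (circles) and of 400 to below 800 bp (squares). Bars are Wilson 95% intervals, and the dashed line marks a score of 300. Squares go from 6.64% in the lowest class to 1.42% in the highest.

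By antibody, Avruch peaks overlapped 3.59% of narrow TEAD1 peaks with scores of 300 to 500, 1.52% at 500 to 1000 and 1.27% at 1000 or more. Santa Cruz peaks overlapped 2.32% and 1.02% in the first of these classes and the next, and 0 of 157 at 1000 or more, for which the upper Wilson bound is 2.39%. Each antibody has 1 library of unknown depth, and whether the classes differ between antibodies was not tested.

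YAP peaks were seldom just outside these sites either. The nearest YAP peak lay a median of 82.5 kb away, against 69.8 kb for the weaker narrow peaks without YAP. A YAP peak lay within 1 kb of 16 of 1640 sites (0.976%, 0.601 to 1.58) and of 2.62% of the weaker peaks (2.47 to 2.77), where the value over all narrow peaks without YAP was 2.56%. Within 10 kb the shares were 9.76% of sites (160 of 1640, 8.41 to 11.3) and 13.2% of weaker peaks (12.9 to 13.5), against 13.1% over all narrow peaks without YAP. Within 100 kb they were 56.3% and 60.1%, and 59.9% over all. Among peaks of 400 to below 800 bp, the shares were 0.931% of sites and 4.86% of weaker peaks within 1 kb, 9.59% and 18.4% within 10 kb, and 57.2% and 66.1% within 100 kb. The rule removes peaks that touch YAP, so overlaps were also counted together with near misses. On that count 4.19% of narrow peaks with a score of 300 or more had a YAP peak over them or within 1 kb (71 of 1695, 3.33 to 5.25), and 5.49% of those below 300 did (5.28 to 5.70).

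**Figure D3:**
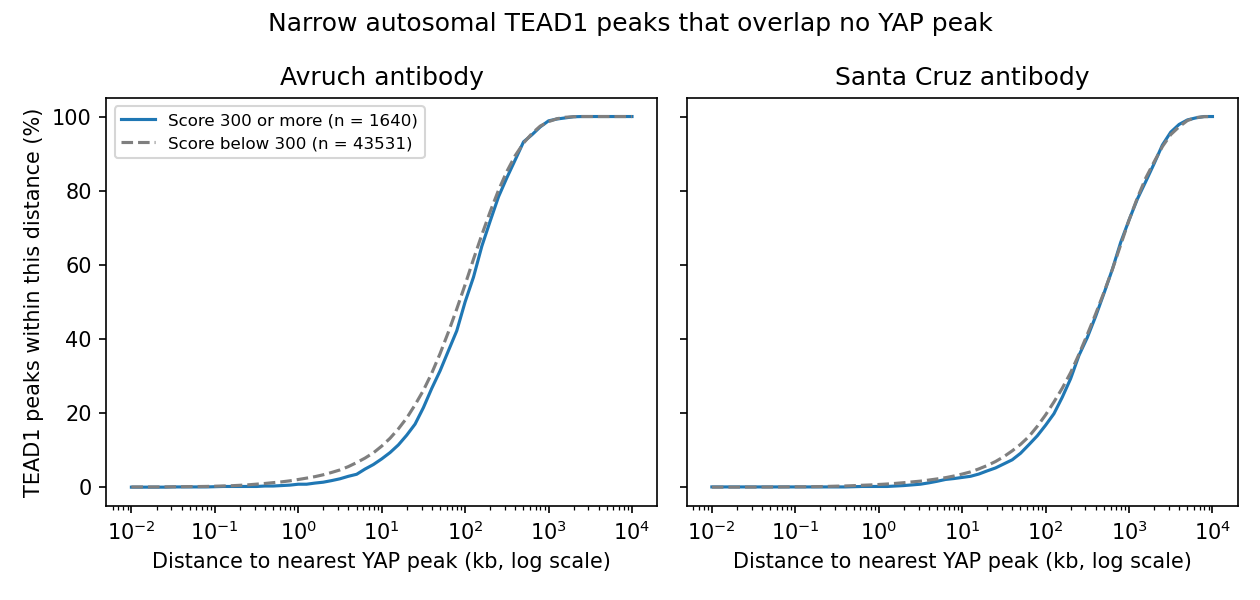
Cumulative percent of narrow autosomal TEAD1 peaks without YAP (vertical axis) by distance to the nearest YAP peak in kb (horizontal axis, log scale), for Avruch (left) and Santa Cruz (right). Solid lines are the 1640 peaks with a score of 300 or more and dashed lines the 43531 weaker ones. At 10 kb the solid line stands at 7.62% and the dashed one at 11.1% for Avruch.

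The 16 sites within 1 kb of a YAP peak show how near the boundary of the rule some lay. The smallest gap was 7 bp, between a site on chromosome 10 (31423573 to 31424024, score 362) and a Santa Cruz peak. A site on chromosome 2 (196385276 to 196386018) with a score of 1386.34 was 29 bp from an Avruch peak with a score of 64.59, and the chromosome 19 site with a score of 2380.98 was 536 bp from an Avruch peak with a score of 63.27. On the other side of the boundary, the smallest overlap among the 55 peaks with YAP was 10 bp, at a TEAD1 peak on chromosome 7 (63218338 to 63219320, score 300.37). Of the 16 near sites, 13 were near an Avruch peak and 3 near a Santa Cruz peak. The YAP peaks near the sites had scores close to the medians of their own lists. The nearest Avruch peaks of the 125 sites within 10 kb of one had a median score of 62.4, against 63.3 over all 9346 autosomal Avruch peaks. The nearest Santa Cruz peaks of the 43 sites within 10 kb of one had a median of 56.9, against 58.7 over all 2185 autosomal Santa Cruz peaks.

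The surroundings of the sites were then described by their other TEAD1 peaks. With TEAD1 peaks joined into runs over gaps of at most 10 kb, 722 of 1640 sites stood alone (44.0%), 406 were in pairs (24.8%) and 512 were in runs of at least 3 (31.2%, 29.0 to 33.5). Over all narrow autosomal TEAD1 peaks, 49.3% stood alone and 28.7% were in such runs. Median scores were 450 for sites alone, 479 in pairs and 487 in runs. Position among other TEAD1 peaks was not used by the rule, so differences are given with the Newcombe 95% interval. This interval treats each peak as independent although neighbouring peaks share signal and peaks of 1 library are not replicates. Of the 55 strong narrow peaks with YAP, 31 shared a run with another TEAD1 peak that carried YAP, so they are not separate observations.

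Without regard to width, the sites had immediate surroundings near those of narrow TEAD1 peaks as a whole, and the 55 strong narrow peaks with YAP differed from them. Another TEAD1 peak lay within 1 kb of 15.9% of sites (261 of 1640) and of 60.0% of the peaks with YAP (33 of 55), a difference of -44.1 percentage points (-56.1 to -30.8). The value over all narrow autosomal TEAD1 peaks was 16.7%. At widths of 400 to below 800 bp the likeness was not seen, with 16.0% of sites and 26.7% of all such peaks. In runs of at least 3, these widths gave 31.4% of sites and 39.8% of all such peaks. Runs of at least 3 peaks held 31.2% of sites and 70.9% of the peaks with YAP, a difference of -39.7 points (-50.2 to -26.4). With peaks joined over gaps of at most 1 kb before runs were drawn, that difference was -11.3 points and its interval included 0 (-24.7 to 0.332). Limited to widths of 400 to below 800 bp, the difference within 1 kb was -41.5 points (-56.8 to -24.7). Among peaks with a score of 500 or more, where 13 carried YAP, it was -14.7 points with an interval that included 0 (-41.7 to 3.59). Sites were also less often within 2 Mb of a stretch of at least 2.5 Mb without any peak, at 1.71% against 7.27% (4 of 55). The difference was -5.57 points (-15.6 to -1.09), with 2.80% over all narrow TEAD1 peaks. With widths of 400 to below 800 bp its interval included 0 (-17.8 to 0.191).

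Against the weaker narrow peaks without YAP, the comparison depended on width. Taken whole, 31.2% of sites and 28.3% of weaker peaks were in runs of at least 3, a difference of 2.88 points (0.644 to 5.20). Among peaks of 400 to below 800 bp, 31.4% of 1397 sites and 40.2% of 5434 weaker peaks were, and the difference turned round to -8.84 points (-11.6 to -6.04). A TEAD1 neighbour within 1 kb was found at 15.9% of sites and 16.3% of weaker peaks overall (-0.384 points, -2.11 to 1.50), and at 16.0% and 27.6% at these widths (-11.6 points, -13.7 to -9.22). Neighbours at more than 1 and up to 10 kb were more frequent at the sites in both cases, by 5.95 points (40.1% against 34.1%, 3.56 to 8.38, with 34.0% over all narrow TEAD1 peaks) and by 3.56 points (0.709 to 6.44). Neighbours at more than 10 and up to 50 kb were found at 35.2% of sites and 34.7% of weaker peaks (0.593 points, -1.73 to 2.98), with 34.5% over all narrow TEAD1 peaks, and at 35.3% and 27.6% at these widths (7.70 points, 4.96 to 10.5). Sites with no TEAD1 peak within 50 kb were 8.78% against 14.9% overall (-6.16 points, -7.48 to -4.65), with 14.8% over all narrow TEAD1 peaks, and 8.59% against 8.30% at these widths (0.290 points, -1.27 to 2.03).

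**Figure D4:**
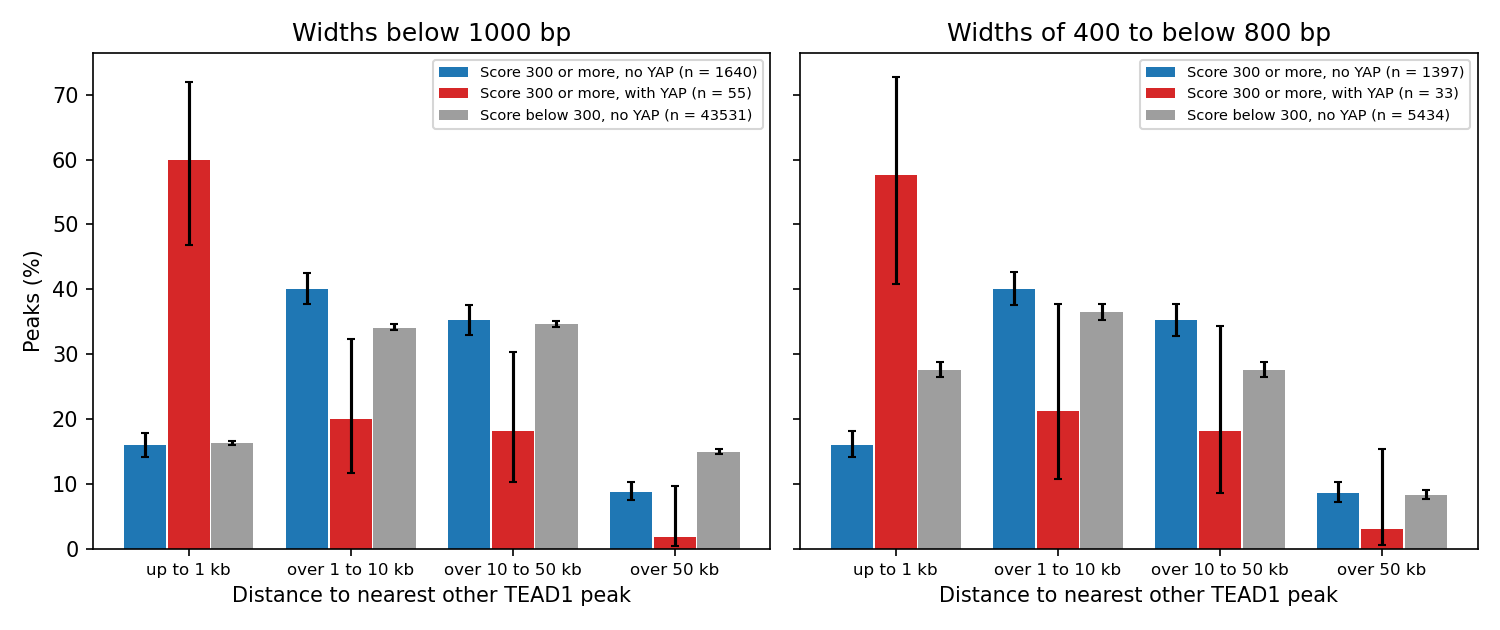
Percent of peaks (vertical axis) by distance to the nearest other TEAD1 peak (horizontal axis) for autosomal TEAD1 peaks with widths below 1000 bp (left) and of 400 to below 800 bp (right). Bars show strong peaks without YAP, strong peaks with YAP and weaker peaks without YAP, and error bars are Wilson 95% intervals. Neighbours up to 1 kb were found at 15.9%, 60.0% and 16.3% of peaks on the left.

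The nearest TEAD1 neighbours of the 261 sites with one within 1 kb had a median score of 82.7, and 150 of them (57.5%) scored below 100. For the 7762 narrow autosomal TEAD1 peaks with a neighbour this near, the neighbours' median score was 73.8 and 69.9% scored below 100. In 444 runs of at least 3 peaks that held a site, 379 held 1 site, 62 held 2 and 3 held 3. Their median size was 4 peaks, and 21 runs had at least 10. At 52 sites (3.17%, 2.43 to 4.13), a further TEAD1 peak of the same run carried a YAP peak. This was 3.94% for the weaker peaks without YAP and 4.48% over all narrow TEAD1 peaks. At widths of 400 to below 800 bp it was 2.93% of sites and 8.67% of weaker peaks. The same YAP lists chose the sites, so these shares are descriptions without a test.

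The 3 runs with 3 sites show several strong TEAD1 peaks side by side without YAP. On chromosome 1, a run of 6 peaks from 85779583 to 85796459 held sites with scores of 1100, 454.61 and 321.49, each 20.2 to 30.1 kb from the nearest YAP peak. On chromosome 2, a run of 5 peaks from 235578616 to 235603391 held sites with scores of 349.95, 816.97 and 1005.66, and the nearest YAP peak to any of them was 704 kb away. On chromosome 13, a run of 5 peaks from 109909087 to 109927183 held sites with scores of 602.70, 453.12 and 627.01, and the nearest YAP peak was 396 kb away.

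The median gap between consecutive sites on a chromosome was 695 kb. Spacing was not computed for other TEAD1 peaks or for evenly spread positions. The values below thus do not show whether sites lie closer together or farther apart than either. Of 1618 such gaps, 76 were at most 10 kb, 301 at most 100 kb and 661 more than 1 Mb, and the largest was 25.3 Mb. In windows of 1 Mb, 1010 held a site, 616 of them a single one and 62 at least 4. The fullest windows held 7 sites each, on chromosome 2 (47082254 to 47650042), chromosome 15 (67095446 to 67467761) and chromosome 19 (45106258 to 45959633). The site nearest to a YAP peak was 3.42 kb from it in the chromosome 2 window, 13.3 kb in the chromosome 15 window and 0.536 kb in the chromosome 19 window. The highest scores in these windows were 662, 1653.10 and 2380.98.

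Sites were found on all 22 autosomes. They made up 3.52% of all narrow autosomal TEAD1 peaks, with the highest share on chromosome 1 (201 of 4627, 4.34%, 3.79 to 4.97) and the lowest on chromosome 13 (23 of 1033, 2.23%, 1.49 to 3.32). Intervals lay wholly above 3.52% on chromosomes 1 and 3 (117 of 2700, 4.33%, 3.63 to 5.17), and wholly below it on chromosomes 13, 16 (42 of 1648, 2.55%, 1.89 to 3.43) and 19 (68 of 2543, 2.67%, 2.11 to 3.38). On chromosome 17 (71 of 2535, 2.80%, 2.23 to 3.52) the upper bound equalled that value at the digits given. These 22 intervals were not adjusted for their number. Chromosome 13 held no site with a score of 1000 or more, its highest being 996.15. Strong narrow peaks with YAP, which were 3.24% of strong narrow peaks over all autosomes (55 of 1695), were not found on chromosomes 3 (0 of 117, upper Wilson bound 3.18%) and 21 (0 of 27, upper bound 12.5%). Their share was highest on chromosomes 22 (5 of 32, 15.6%, 6.86 to 31.8) and 19 (6 of 74, 8.11%, 3.77 to 16.6).

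**Figure D5:**
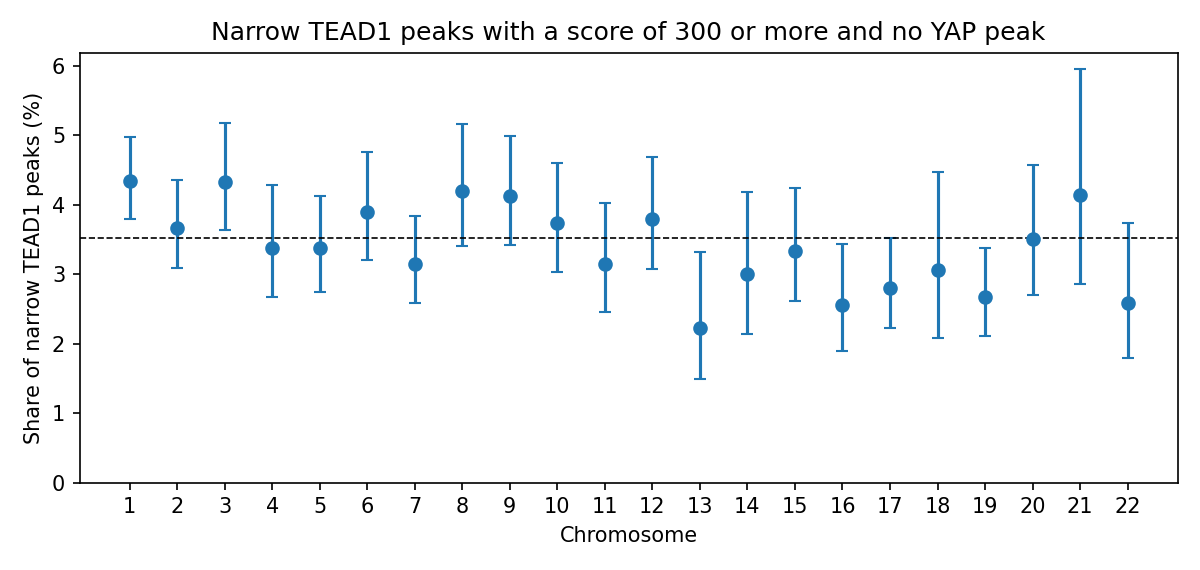
Strong narrow TEAD1 peaks without YAP as a percent of all narrow TEAD1 peaks (vertical axis) on each autosome (horizontal axis). Bars are Wilson 95% intervals and the dashed line is the value over all autosomes, 3.52%. Points range from 2.23% on chromosome 13 to 4.34% on chromosome 1.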

How the data were processed

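The deposited files were 3 peak lists without headers, 1 per library and not pooled, each with 5 columns. The values in the last column are the authors' peak score, deposited with no stated unit, and they served here to rank and select peaks of a list. Reads were aligned with Bowtie2 to hg19, per the submitters' processing notes. Peak names in the deposited lists begin with MACS, a peak caller. Its version, its settings, its control and how it treated duplicate or multiply mapped reads were not given in the sources used here. How these choices affected the peaks called was not tested.

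Starts were taken as counted from 0. Overlap meant at least 1 shared bp, and distances ran between peak edges. Shares have Wilson 95% intervals and differences Newcombe 95% intervals, which cover counting error only. With 1 library per antibody they describe these libraries. The computations used Python 3.11.15, pandas 2.3.3, numpy 2.4.6 and scipy 1.17.1, and were tested on simulated intervals. The 20 highest-scoring peaks were named. The fixed rule for genes near peaks, the gene lists and the motif searches was not run, because no hg19 genome or annotation was used here. Sites, lists and classes were chosen with earlier results of these data known. The range of 400 to below 800 bp, the peak-free stretches, the joined peaks, the other scores for runs, the runs with 3 sites and the fullest windows were chosen after the data had been seen.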

Additional observations from a re-analysis of the deposited data

How the results depend on the processing

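The number of strong narrow TEAD1 peaks without YAP was 3043 with a score of 200 or more, 735 with 500 or more and 653 with widths below 500 bp, since these limits set the count. Leaving out peaks within 1 or 10 kb of YAP, or using either YAP list alone, kept it within 1480 to 1667. As a share of the strong narrow peaks, it was 98.3% at a score of 500 or more, 98.6% with widths below 500 bp, 87.3% with no YAP peak allowed within 10 kb and 98.3% with the Santa Cruz list alone. The median distance to YAP was 99.7 kb for Avruch and 465 kb for Santa Cruz. The share of sites in runs was 16.9% with gaps of at most 5 kb, 52.8% with 20 kb, 33.9% at a score of 500 or more and 25.1% with peaks joined over 1 kb. The difference in runs from weaker peaks was 0.888 points with gaps of 5 kb, an interval that included 0, 6.56 points with 20 kb, 5.52 at a score of 500 or more, and it reversed to -8.84 at widths of 400 to below 800 bp. At these widths the difference for no neighbour within 50 kb was no longer seen (0.290 points, an interval that included 0). Against strong peaks with YAP, the difference in runs was -11.3 points with joined peaks and that within 1 kb was -14.7 at a score of 500 or more, both with intervals that included 0. Fewer peaks enter at a score of 500 or more, and the cause of each of these changes was not tested. Of the 49 alternatives run, 31 were classed as unchanged, some of them among those given above. For differences this meant the same sign with an interval that still left out 0. For shares it meant a value within the main interval, and for counts a change within a set factor. Motif, start-site and gene alternatives were not run. No paired analysis was possible because each antibody has 1 library, and no replicate could be left out.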

Other observations

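Several of the strongest narrow TEAD1 peaks lay in a stretch of chromosome 10, a pattern chosen after its values were seen. Of all 1640 sites, 85 were on chromosome 10. Of the autosomal peaks with a score of 2000 or more, chromosome 10 held 4 without YAP and 1 with an Avruch peak. Apart from the site at 35701830, these lay at 47152496 (score 2982.74, with Avruch), 47767896 (2821.44), 48276308 (2779.44) and 49195839 (2480.03), with widths of 611, 650, 566 and 734 bp. No sequence was compared between them, and whether they are copies of each other was not tested.

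Some sites lay in long runs of TEAD1 peaks, some of which carried YAP. The longest run with a site, on chromosome 17 from 18981767 to 19097326, held 35 TEAD1 peaks, of which 2 overlapped YAP and 2 were sites with scores of 1464.17 and 524.33. A run on chromosome 4 from 190986344 to 191013484 held 34 peaks, 7 of them with YAP, and 1 site with a score of 376.48. A run on chromosome 7 from 5565985 to 5647868 held 25 peaks, 1 of them with YAP, and sites with scores of 613.03 and 1882.96.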
